A study of Mus musculus with 12 samples.

Results

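The DNA repair genes described here are 47 genes of base excision, mismatch, nucleotide excision and double-strand break repair and of the damage signal, taken from a list of names, which uses no measured value but was drawn up with earlier results of these arrays known. They were looked up among the 16593 genes with a named probe on an Illumina mouse bead array, and the brightest probe stood for each gene. Of the 47 genes, 44 had a named probe and 24 reached an array intensity of at least 100 on any of the 12 arrays, the detection value used in the study's methods, so that these 24 were tested together with all 6096 genes that reached it. The other 20 stayed under 100 on every array, and no probe was named for Fanca, Atr and Mdc1, which were not analysed here.

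Mouse embryonic fibroblasts (MEFs) were Sirt6-/-RelA-/-, Sirt6-/- or wild-type, which makes 3 genotypes, and each was profiled for RNA at 4 times: without TNF-α (0 h) and after 1.5, 6 and 24 h with the cytokine at a dose of 20 ng/mL. The cells of all groups came from embryos of 13.5 days and had been passaged 4 times before it was added. Each of the 12 conditions had 1 array, so the 4 times of a genotype stand in for replicates below: a p-value measures how steady a genotype difference was over the times, and not the spread between embryos. Genotype and culture cannot be told apart. The comparisons ask how the deletion of Sirt6, and then of RelA in addition, changed the transcript levels of the repair genes.

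Sirt6 is a chromatin-bound, NAD-dependent deacetylase that is itself known as a repair factor: it promotes base excision repair and the repair of double-strand breaks, and it also holds back transcription driven by RelA, a subunit of NF-κB. Base excision repair removes single damaged bases and closes the nick left in the strand, mismatch repair corrects copying errors, and nucleotide excision repair cuts out bulky lesions such as those made by ultraviolet light. Double-strand breaks are rejoined directly by end joining or copied from the sister chromatid by homologous recombination, and many genes of homologous recombination and of long-patch base excision repair are known to be transcribed mostly in dividing cells.

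The deleted genes followed the labels. The Sirt6 probe gave -2.85 to 11.96 in Sirt6-/-RelA-/- cells and -8.50 to 5.88 in Sirt6-/- cells, against 37.6 to 44.2 in wild-type cells, on a linear intensity scale from which background had been subtracted. Rela gave 172 to 187 in Sirt6-/-RelA-/- cells, against 1025 to 1446 in Sirt6-/- cells, and in wild-type cells 674 to 1303. Transcripts of the sex chromosomes differed as well. Eif2s3y, a gene of the Y chromosome, gave 768 to 910 in Sirt6-/-RelA-/- cells, against -11.9 to 2.56 in Sirt6-/- and -4.18 to -0.97 in wild-type cells, so sex and RelA cannot be told apart in these arrays. The wild-type 0 h array stood apart from its own genotype, with a mean correlation of 0.967 with the other wild-type arrays, where the same measure was 0.982 to 0.991 on the other 11 arrays, and values without it are given beside several of the genes it affected.

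In Sirt6-/- cells 13 of the 24 tested repair genes were lower than wild-type cells and 3 were higher, at an adjusted p under 0.05 from limma. Over all 6096 genes tested, 17% were lower (1039 genes) and 25.1% were higher (1531). These counts depended on the scaling: 1252 were lower and 1274 higher when each array was centred on its median. With quantile normalization 1236 were lower and 1282 higher. The median log2 difference was -0.32 for the repair genes and 0.06 for all genes. In 11 of the 24 repair genes all 4 Sirt6-/- arrays lay below all 4 wild-type arrays, which held for 13.5% of all genes, and in 3 they all lay above, which held for 21.4%. In a mixed culture, fewer cells of a kind and less RNA in each cell cannot be told apart in such values.

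In Sirt6-/-RelA-/- cells 12 of the 24 repair genes were higher than Sirt6-/- cells and 1 was lower, where 16.1% of all genes were higher and 15% lower. The median difference was 0.28 for the repair genes and 0.02 for all genes. All 4 Sirt6-/-RelA-/- arrays lay above all 4 Sirt6-/- arrays in 12 of the 24, and in 18.1% of all genes. Set against wild-type cells, Sirt6-/-RelA-/- cells had 2 repair genes higher and none of the 24 lower at the same threshold, with 4 at an unadjusted p under 0.05, where 15.3% of all genes were higher (930 genes) and 5.31% lower (324), or 677 and 454 genes when each array was centred on its median. The median difference in that comparison was 0.00 for the repair genes and 0.07 for all genes. These comparisons share arrays: the Sirt6-/- arrays enter the first and second, and the third uses arrays of both, so the values are given side by side and not as separate evidence.

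A gene could pass the filter through the genotype in which it was high, which favours genes that differ. Xrcc4 reached 100 only on wild-type arrays, and Pms2 and Rad54l reached it on no Sirt6-/- array. In a restriction chosen after seeing the data, to the 5388 genes that reached 100 on an array of every genotype, 21 were repair genes, of which 11 were lower and 3 higher in Sirt6-/- than wild-type cells, where 15.5% of these genes were lower and 24.5% higher. In Sirt6-/-RelA-/- against Sirt6-/- cells 10 of these 21 were higher and 1 lower, where 14.9% and 13.2% of the 5388 genes were. With no filter, all 44 repair genes with a probe were tested. Of these, 13 were lower and 2 higher in Sirt6-/- than wild-type cells, where 869 and 1287 of 16593 genes were. Against Sirt6-/- cells, 12 were higher and 1 lower in Sirt6-/-RelA-/- cells, where 763 and 613 of 16593 genes were. Just inside the filter was Xrcc4, whose highest intensity was 107, and just outside was Polb, at 99.3.

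**Figure D1:**
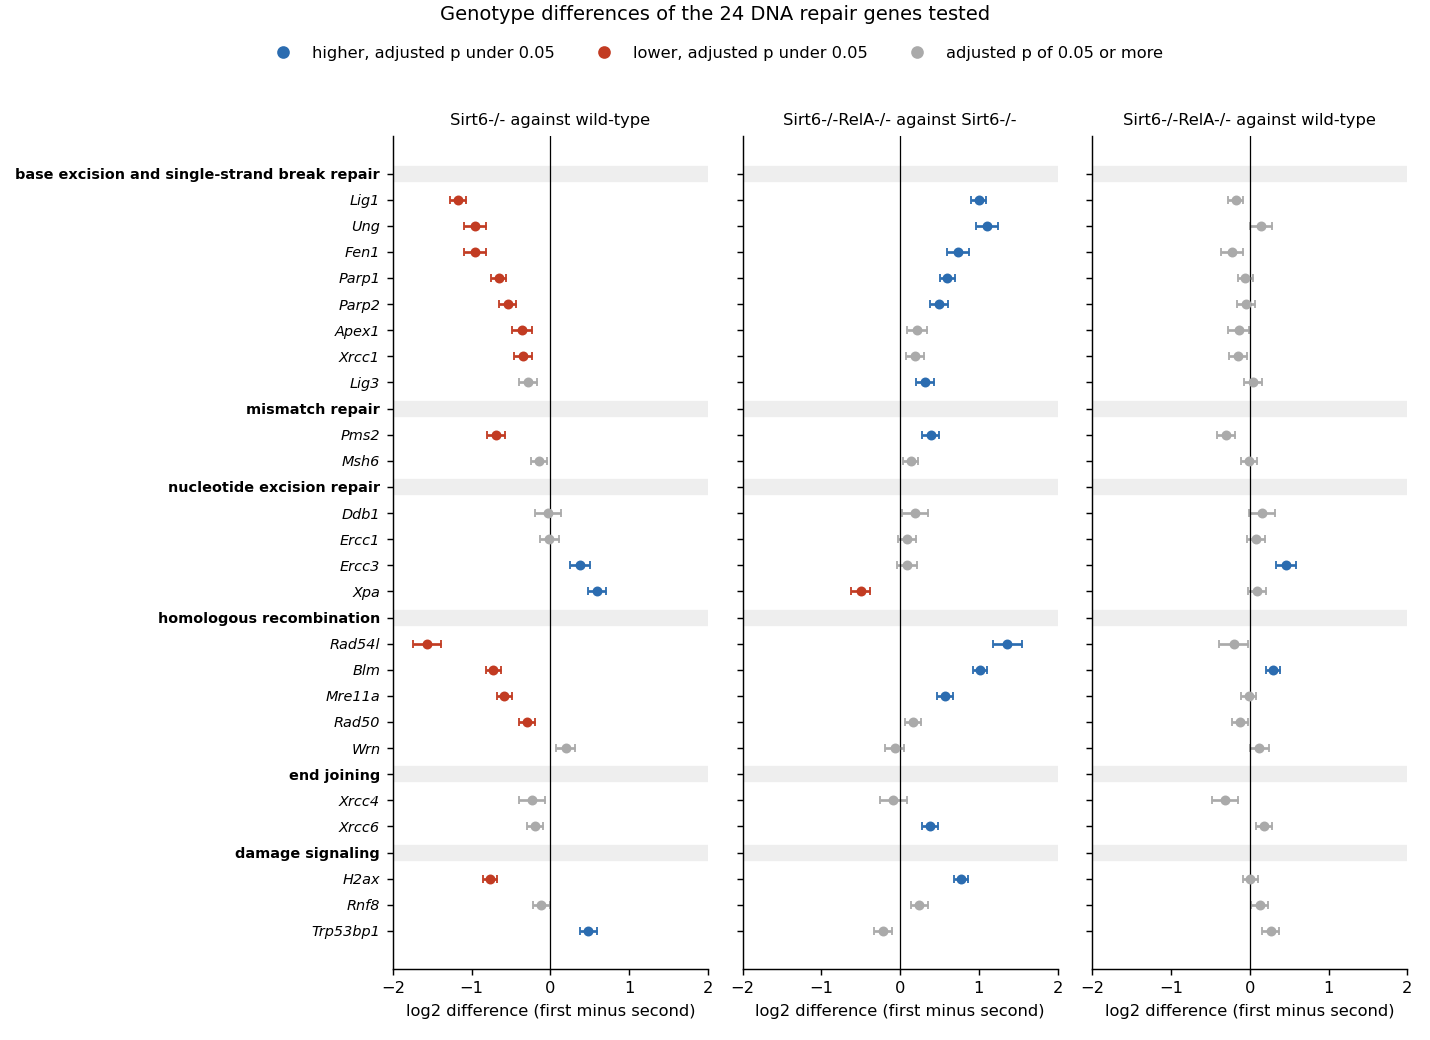
Log2 differences of the 24 repair genes tested, grouped by repair pathway, for Sirt6-/- against wild-type, Sirt6-/-RelA-/- against Sirt6-/- and Sirt6-/-RelA-/- against wild-type cells. Points are limma estimates over the 4 times and bars are 1 standard error. In the left panel 13 genes were lower and 3 higher, in the middle panel 12 were higher and 1 lower, and in the right panel 2 were higher.

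Base excision and single-strand break repair held 7 of the 13 genes that were lower: 7 of its 8 tested genes were lower in Sirt6-/- than wild-type cells and none was higher, with a median of -0.60, and 6 of the 8 were above Sirt6-/- cells in Sirt6-/-RelA-/- cells, with a median of 0.55. For this and the pathways below, 17% of all genes tested were lower and 25.1% higher in Sirt6-/- than wild-type cells. In Sirt6-/-RelA-/- against Sirt6-/- cells 16.1% were higher and 15% lower. Lig1 encodes the DNA ligase that seals nicks at the end of long-patch repair and between Okazaki fragments. At 0, 1.5, 6 and 24 h its intensity was 439, 476, 480.3 and 551 in Sirt6-/-RelA-/- cells, 247, 249, 200.2 and 283 in Sirt6-/- cells and 533, 557, 517 and 593 in wild-type cells. All Sirt6-/- arrays lay below all arrays of both other genotypes, and the difference from wild-type was -1.18 as log2 (standard error 0.10, adjusted p = 1.01e-06), or 2.26-fold lower. Sirt6-/-RelA-/- cells were 1.995-fold above Sirt6-/- cells (log2 difference 1.00, standard error 0.10, adjusted p = 8.48e-06) and lay below wild-type at 4 of 4 times, with a difference of -0.18 (standard error 0.10, adjusted p = 0.215).

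Ung encodes the uracil-DNA glycosylase that takes uracil out of DNA, a first step of base excision. Its intensity was 189, 177, 199.7 and 277 in Sirt6-/-RelA-/- cells, 92.8, 88.0, 108 and 99.3 in Sirt6-/- cells and 235, 168, 181 and 175 in wild-type cells at 0, 1.5, 6 and 24 h. The Sirt6-/- arrays were the 4 lowest, while the highest array was that of Sirt6-/-RelA-/- cells at 24 h. The log2 difference was -0.96 for Sirt6-/- against wild-type (standard error 0.14, adjusted p = 0.000114) and 1.10 for Sirt6-/-RelA-/- against Sirt6-/- cells (standard error 0.14, adjusted p = 6.27e-05). With single arrays left out, the difference of Sirt6-/- from wild-type cells ranged from -1.07 to -0.82.

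Fen1, the flap endonuclease that trims the displaced strand in long-patch repair and in replication, gave 539.8, 486, 606 and 812 in Sirt6-/-RelA-/- cells, 364, 335, 351 and 393 in Sirt6-/- cells and 898, 641, 638 and 649 in wild-type cells over the same times. Here too the 4 Sirt6-/- arrays lay below the other 8, and the wild-type 0 h array was far above the later wild-type arrays. The difference of Sirt6-/- from wild-type cells was -0.96 (standard error 0.14, adjusted p = 0.000143), and -0.81 without the wild-type 0 h array. Sirt6-/-RelA-/- cells exceeded Sirt6-/- cells by 0.74 (standard error 0.14, adjusted p = 0.0016).

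Parp1 encodes the polymerase that marks strand breaks with chains of ADP-ribose. It gave 526, 509, 513 and 666 in Sirt6-/-RelA-/- cells, 357, 346, 344 and 409 in Sirt6-/- cells and 583, 601, 515 and 593 in wild-type cells. The Sirt6-/- arrays did not overlap either of the other groups, which overlapped each other. The difference was -0.66 for Sirt6-/- against wild-type (standard error 0.10, adjusted p = 0.000142) and 0.60 for Sirt6-/-RelA-/- against Sirt6-/- cells (standard error 0.10, adjusted p = 0.000445). A second Parp1 probe gave -0.83 and 0.72.

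The remaining genes of this pathway moved less. Parp2, a second ADP-ribose polymerase of strand breaks, fell by 0.54 in Sirt6-/- relative to wild-type cells and was higher by 0.49 in Sirt6-/-RelA-/- than Sirt6-/- cells (adjusted p = 0.00174 and 0.00485). Apex1, the endonuclease that cuts at sites that have lost their base, and Xrcc1, the scaffold protein of single-strand break repair, were lower in Sirt6-/- than wild-type cells, with differences of -0.36 and -0.34 (adjusted p = 0.0405 and 0.028). The Apex1 call was lost when any of 10 single arrays was left out, and its difference was -0.22 without the wild-type 1.5 h array. That of Xrcc1 was lost without any of 5 arrays and was -0.23 without the wild-type 0 h array. Lig3, the ligase partner of Xrcc1, gave -0.28 (adjusted p = 0.0619) in Sirt6-/- against wild-type cells and was higher by 0.32 in Sirt6-/-RelA-/- than Sirt6-/- cells (adjusted p = 0.0473), a call lost without any of 8 arrays.

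**Figure D2:**
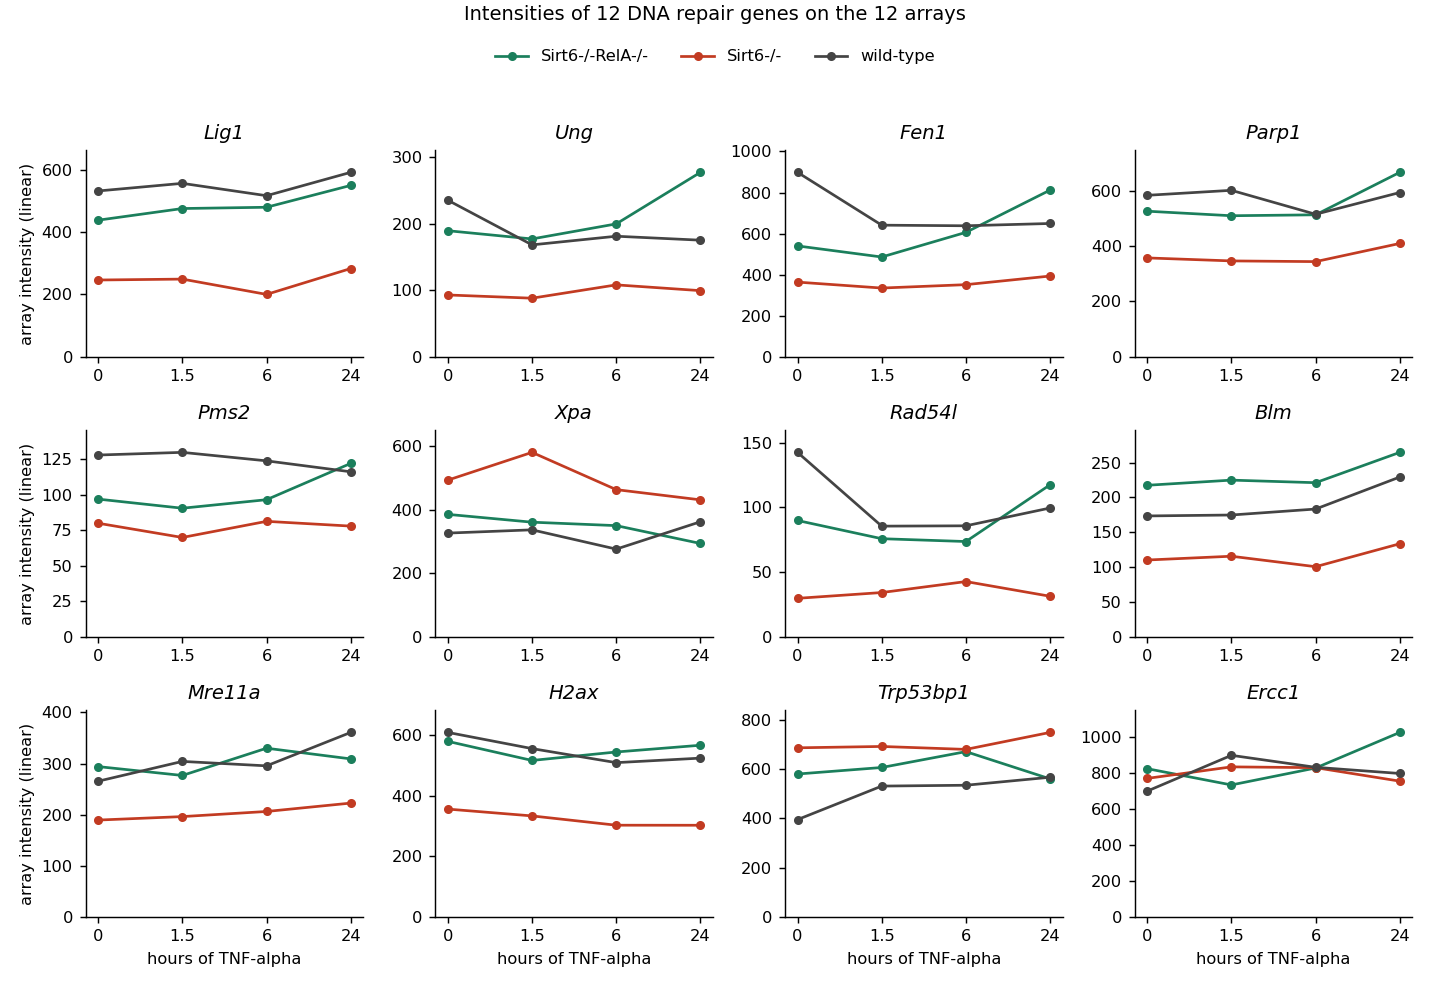
Linear array intensities of 12 repair genes at 0, 1.5, 6 and 24 h of TNF-α (times evenly spaced on the axis, vertical axes from 0) in Sirt6-/-RelA-/-, Sirt6-/- and wild-type cells, 1 array per point. The Sirt6-/- line lies lowest at every time for Lig1, Ung, Fen1, Parp1, Pms2, Rad54l, Blm, Mre11a and H2ax and highest for Xpa and Trp53bp1, while the lines of Ercc1 cross.

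Of the mismatch repair genes, 2 of 4 were tested and 1 of them was called. Pms2 encodes a protein that nicks the strand to be corrected. It gave 96.8, 90.4, 96.4 and 122 in Sirt6-/-RelA-/- cells, 79.8, 69.8, 81.2 and 77.8 in Sirt6-/- cells and 128, 129.7, 124 and 116 in wild-type cells at 0, 1.5, 6 and 24 h. The Sirt6-/- arrays were the 4 lowest, and Sirt6-/-RelA-/- cells lay between the other genotypes at 0, 1.5 and 6 h. No Sirt6-/- array reached 100, so Pms2 passed the filter through the genotypes in which it was higher. The difference was -0.69 for Sirt6-/- against wild-type (standard error 0.11, adjusted p = 0.000267), 0.39 for Sirt6-/-RelA-/- against Sirt6-/- (standard error 0.11, adjusted p = 0.0173) and -0.30 for Sirt6-/-RelA-/- against wild-type cells (standard error 0.11, adjusted p = 0.0677). The call against Sirt6-/- cells was lost without any of 3 arrays. Msh6, which recognises single mispaired bases, gave -0.14 in Sirt6-/- against wild-type and 0.13 in Sirt6-/-RelA-/- against Sirt6-/- cells (standard error 0.10 each, adjusted p = 0.283 and 0.338).

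In nucleotide excision repair 2 of 4 tested genes were higher and none was lower in Sirt6-/- than wild-type cells, with a median of 0.18. Over all genes tested 25.1% were higher and 17% lower. Xpa encodes the protein that verifies the lesion and gathers the repair complex. Its intensity was 386, 361, 350.3 and 294 in Sirt6-/-RelA-/- cells, 494, 581, 464 and 431 in Sirt6-/- cells and 327, 337, 276 and 362 in wild-type cells. The 4 Sirt6-/- arrays lay above all others. Sirt6-/- cells exceeded wild-type cells by 0.60 (standard error 0.12, adjusted p = 0.00126, 1.51-fold), and Sirt6-/-RelA-/- cells were lower than Sirt6-/- cells, with a difference of -0.50 (standard error 0.12, adjusted p = 0.00586). Xpa was the 1 repair gene that was lower in that comparison, and it gave -0.44 (adjusted p = 0.0562) without the 1.5 h arrays.

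Ercc3, a helicase of the transcription factor TFIIH that opens the DNA around the lesion, was higher than in wild-type by 0.46 in Sirt6-/-RelA-/- cells and by 0.37 in Sirt6-/- cells (standard error 0.12 each, adjusted p = 0.0206 and 0.0282). A second, dimmer Ercc3 probe gave 0.08 in Sirt6-/- against wild-type cells, the call there was lost without any of 7 arrays (that in Sirt6-/-RelA-/- cells without any of 4), and the difference was 0.24 without the wild-type 0 h array. The call in Sirt6-/- cells also depended on the scaling. It was lost with each array centred on its median (0.31, adjusted p = 0.0514) and with quantile normalization (0.27, adjusted p = 0.0869). It was lost too with the mean over probes (0.225, adjusted p = 0.103) and with no filter (adjusted p = 0.133). Ercc1, which cuts one side of the lesion with its partner nuclease, gave -0.01 in Sirt6-/- against wild-type and 0.09 in Sirt6-/-RelA-/- against Sirt6-/- cells (standard error 0.12 each). Ddb1, part of the complex that finds lesions made by ultraviolet light, gave -0.03 and 0.19 in the same comparisons (standard error 0.16 each), with adjusted p-values of 0.902 and 0.414. Without the wild-type 0 h array Ddb1 gave 0.205 in the first of these (adjusted p = 0.115).

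Of the homologous recombination genes, 5 of 11 were tested, 4 were lower and none was higher in Sirt6-/- than wild-type cells, with a median of -0.58, and 3 were higher in Sirt6-/-RelA-/- than Sirt6-/- cells, with a median of 0.57. Rad54l encodes a motor protein that works on the DNA during strand invasion. It gave 89.8, 75.7, 73.5 and 117 in Sirt6-/-RelA-/- cells, 29.7, 34.1, 42.6 and 31.3 in Sirt6-/- cells and 142, 85.4, 85.7 and 99.4 in wild-type cells at 0, 1.5, 6 and 24 h. No Sirt6-/- array reached the lowest array of either other genotype. Rad54l reached 100 only on the wild-type 0 h and the Sirt6-/-RelA-/- 24 h arrays. It thus passed the filter through the genotypes in which it was high, and it is among the 4 lower and 3 higher genes counted above. The difference of -1.57 from wild-type was the largest of the 24 genes (standard error 0.18, adjusted p = 2.01e-05, 2.96-fold lower), and it was -1.37 without the wild-type 0 h array. The size and the rank depend on how low intensities are handled: with an offset of 50 in place of the floor of 16 the difference was -0.85, smaller than that of Lig1 (-1.03). Sirt6-/-RelA-/- cells exceeded Sirt6-/- cells by 1.36 (standard error 0.18, adjusted p = 0.000111).

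Blm encodes the helicase that dissolves joined recombination intermediates, whose loss in people causes Bloom syndrome. Its intensity was 217, 225, 221 and 265 in Sirt6-/-RelA-/- cells, 110.1, 116, 101 and 133 in Sirt6-/- cells and 173, 175, 183 and 229 in wild-type cells. Sirt6-/- arrays were lowest at every time and Sirt6-/-RelA-/- arrays highest. The difference was -0.72 for Sirt6-/- against wild-type (standard error 0.09, adjusted p = 3.84e-05), 1.02 for Sirt6-/-RelA-/- against Sirt6-/- (standard error 0.09, adjusted p = 3.75e-06) and 0.29 for Sirt6-/-RelA-/- against wild-type cells (standard error 0.09, adjusted p = 0.039). The last of these calls was lost without any of 10 single arrays, and it was 0.08 when the Blm probes were averaged.

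Mre11a encodes the nuclease of the complex that holds and trims broken ends, and Rad50 its ATPase partner. Mre11a gave 294, 277, 330.0 and 309 in Sirt6-/-RelA-/- cells, 189, 196, 206 and 223 in Sirt6-/- cells and 265, 304, 295 and 361 in wild-type cells. The Sirt6-/- arrays were the 4 lowest and the other genotypes overlapped. The differences were -0.58 for Sirt6-/- against wild-type (standard error 0.10, adjusted p = 0.000406) and 0.57 for Sirt6-/-RelA-/- against Sirt6-/- cells (standard error 0.10, adjusted p = 0.000737). Rad50 fell by 0.29 in Sirt6-/- relative to wild-type cells (adjusted p = 0.0334), a call lost without any of 6 arrays, the wild-type 0 h array among them (-0.22, adjusted p = 0.0773), and gave 0.17 in Sirt6-/-RelA-/- against Sirt6-/- cells (adjusted p = 0.232). Wrn, a helicase related to Blm, gave 0.19 and -0.07 (adjusted p = 0.23 and 0.7).

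The promoters of members that moved together are shown for Lig1, Ung, Fen1, Blm and Rad54l, the genes of base excision repair and homologous recombination furthest below wild-type in Sirt6-/- cells, and the letters searched in them are those of the E2F core site, through which many genes of replication are known to be transcribed. The search covered TTCCCGC or else TTGGCGC or else TTCGCGC or else TTGCCGC, on both strands, allowing matches to overlap, in windows from 250 bases before to 50 bases after each annotated start (RefSeq, GRCm38.p6). The windows are Lig1 at chr7:13278576-13278875 (plus strand), Ung at chr5:114130185-114130484 (plus strand), Fen1 at chr19:10203872-10204171 (minus strand), Blm at chr7:80534949-80535248 (minus strand) and Rad54l at chr4:116123640-116123939 (minus strand). Each is written 5′ to 3′ on the strand of the gene, with matches in capitals. For genes with more than 1 start, the window with most matches is shown.
Lig1: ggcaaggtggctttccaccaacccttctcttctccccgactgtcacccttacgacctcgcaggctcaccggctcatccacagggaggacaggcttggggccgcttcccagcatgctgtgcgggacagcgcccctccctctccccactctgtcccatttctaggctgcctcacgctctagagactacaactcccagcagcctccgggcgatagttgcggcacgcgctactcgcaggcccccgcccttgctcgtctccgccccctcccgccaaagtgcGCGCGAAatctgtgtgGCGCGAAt
Ung: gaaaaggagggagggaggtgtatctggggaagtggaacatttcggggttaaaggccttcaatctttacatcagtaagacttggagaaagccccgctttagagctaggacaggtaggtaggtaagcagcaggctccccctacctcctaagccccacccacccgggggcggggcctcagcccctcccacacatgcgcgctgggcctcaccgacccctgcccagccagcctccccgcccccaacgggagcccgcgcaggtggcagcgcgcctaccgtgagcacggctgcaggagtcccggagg
Fen1: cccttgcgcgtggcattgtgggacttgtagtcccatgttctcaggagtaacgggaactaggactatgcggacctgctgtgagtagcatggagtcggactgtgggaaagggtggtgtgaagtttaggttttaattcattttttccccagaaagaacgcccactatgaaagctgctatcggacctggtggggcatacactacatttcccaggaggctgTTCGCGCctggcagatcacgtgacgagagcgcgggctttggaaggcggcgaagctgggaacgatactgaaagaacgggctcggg
Blm: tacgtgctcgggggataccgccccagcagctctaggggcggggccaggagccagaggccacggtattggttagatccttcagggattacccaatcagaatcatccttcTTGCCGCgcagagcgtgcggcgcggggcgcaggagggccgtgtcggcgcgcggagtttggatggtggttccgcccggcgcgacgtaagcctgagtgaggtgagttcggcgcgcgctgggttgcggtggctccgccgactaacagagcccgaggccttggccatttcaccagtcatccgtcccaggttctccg
Rad54l: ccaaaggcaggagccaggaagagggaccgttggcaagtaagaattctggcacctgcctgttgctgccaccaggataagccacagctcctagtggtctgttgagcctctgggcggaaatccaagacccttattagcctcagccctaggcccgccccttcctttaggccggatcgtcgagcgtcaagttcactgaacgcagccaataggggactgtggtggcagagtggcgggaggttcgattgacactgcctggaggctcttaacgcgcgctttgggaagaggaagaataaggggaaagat
Lig1 had 2 matches, both after its start, Fen1 and Blm had 1 each before it, and Ung and Rad54l had none in these windows. Of the 24 tested repair genes 20 had a window in the table, and 10 of these held a match, against 2936 of 27025 genes in all, or 10.9%. Among genes that were lower in Sirt6-/- than wild-type cells 5 of 11 held one, and among the other tested repair genes 5 of 9. Of the tested genes of 2 lists described further below, 12 of 22 with a window held one for DNA replication and 1 of 15 for mitosis. A match is a description of the letters, not a site. The table held no window for Rad50, Wrn, H2ax and Ercc3.

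In end joining, 2 of 5 genes were tested and neither was called in Sirt6-/- against wild-type cells. Xrcc6, which encodes the Ku70 subunit that caps broken ends, was higher by 0.38 in Sirt6-/-RelA-/- than Sirt6-/- cells (standard error 0.10, adjusted p = 0.014) and gave -0.20 in Sirt6-/- against wild-type cells (adjusted p = 0.149). Its 2 dimmer probes gave -0.50 and -0.58 in that comparison, the gene was called there when its probes were averaged (-0.43, adjusted p = 0.00199), and the call against Sirt6-/- cells was lost without any of 3 arrays. Xrcc6 was also called lower in Sirt6-/- than wild-type cells with each array centred on its median (-0.26, adjusted p = 0.0431). The same held with quantile normalization (-0.30, adjusted p = 0.0178). Xrcc4, the partner of DNA ligase IV in joining ends, gave 70.9, 62.4, 82.4 and 77.5 in Sirt6-/-RelA-/- cells, 76.7, 56.1, 86.1 and 96.2 in Sirt6-/- cells and 107, 101, 90.1 and 69.3 in wild-type cells. These ranges overlapped, and the difference of Sirt6-/- from wild-type cells was -0.23 (standard error 0.17, adjusted p = 0.285), and -0.43 (adjusted p = 0.0319) without the wild-type 24 h array.

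Among the 3 damage signaling genes tested, 1 was lower and 1 was higher in Sirt6-/- than wild-type cells. H2ax encodes the histone variant that is phosphorylated around a break. It gave 580.4, 517, 545 and 568 in Sirt6-/-RelA-/- cells, 356, 334, 303 and 303 in Sirt6-/- cells and 610.0, 556, 510.0 and 525 in wild-type cells at 0, 1.5, 6 and 24 h. The Sirt6-/- arrays lay far below both other groups, which overlapped. The difference was nearly the same at every time, between -0.79 and -0.74, with a mean of -0.76 (standard error 0.09, adjusted p = 2.63e-05), and Sirt6-/-RelA-/- cells exceeded Sirt6-/- cells by 0.77 (standard error 0.09, adjusted p = 4.24e-05).

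Trp53bp1 encodes 53BP1, which binds marked chromatin beside the break and favours end joining. Its intensity was 580.5, 607, 672 and 561 in Sirt6-/-RelA-/- cells, 687, 693, 681 and 749.7 in Sirt6-/- cells and 395, 531, 535 and 567 in wild-type cells. The Sirt6-/- arrays were the 4 highest and the wild-type 0 h array the lowest. Sirt6-/- cells exceeded wild-type cells by 0.48 (standard error 0.11, adjusted p = 0.00362), and by 0.38 to 0.54 with single arrays left out. Sirt6-/-RelA-/- cells differed from Sirt6-/- cells by -0.22 (standard error 0.11, adjusted p = 0.156). The second, dimmer Trp53bp1 probe gave -0.45 there, and the gene was called when its probes were averaged (-0.33, adjusted p = 0.0218). Rnf8, the ubiquitin ligase that acts between the H2ax mark and 53BP1, gave -0.12 and 0.24 in the same comparisons (adjusted p = 0.413 and 0.104).

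The repair genes were not called under TNF-α. Averaged over the 3 genotypes, none of the 24 was called at 1.5, 6 or 24 h against 0 h, with 1, 0 and 5 at an unadjusted p under 0.05, where 0.262%, 0.886% and 2.15% of all genes were called. The largest of these differences was 0.33, for Apex1 at 24 h (adjusted p = 0.404), and the lowest adjusted p was 0.188, for Blm at 24 h, with a difference of 0.32. The difference in the TNF-α response between Sirt6-/- and wild-type cells was not called for any of the 24, with 2 at an unadjusted p under 0.05, where 0.082% of all genes were called, and the difference between Sirt6-/-RelA-/- and Sirt6-/- cells was not called for any either, with none at an unadjusted p under 0.05, where 0.164% were. In simulated data the test of a difference in response recovered 0% of genes with a simulated log2 change of 1. The simulated noise also held any difference in TNF-α response. This test had 0 calls in the simulation and 5 in the data, so the rate does not describe the data. Each genotype had 1 array at 0 h, so the absence of a call says little about these genes.

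Ddb1 came closest in that test. Its intensity was 393, 462, 541 and 516 in Sirt6-/-RelA-/- cells, 329, 363, 525 and 483 in Sirt6-/- cells and 560.3, 369, 417 and 380.0 in wild-type cells at 0, 1.5, 6 and 24 h. Every later array lay above 0 h in both knockouts and below 0 h in wild-type cells. The difference in response between Sirt6-/- and wild-type cells was 0.99 (standard error 0.21, adjusted p = 0.0742), and it rests on the 0 h arrays, including the wild-type array that stood apart. For Rad54l too every later array lay above 0 h in Sirt6-/- cells and below it in wild-type cells, with a difference of 0.93 (standard error 0.34, adjusted p = 0.173). This difference also rests on the 0 h arrays. Rad54l gave 142 on the wild-type 0 h array that stood apart, and all its Sirt6-/- values were low (29.7 to 42.6). Ddb1 and Rad54l were the 2 of 24 repair genes with this pattern, and its share over all genes was not counted.

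The 20 dim genes were measured but not tested, and their values near the floor of 16 carry little order. In 6 of them all Sirt6-/- arrays lay below all wild-type arrays, namely Brca1, Brca2, Rad51ap1, Rad51c, Fancd2 and Atm, and in none did they all lie above. Over all 10500 genes whose brightest probe stayed under 100 on every array, 5.24% lay below in this way and 3.9% above, or 2.66% and 3.09% with values under 16 set to 16, which left the count of 6 as it was. Fancd2, the protein that is ubiquitinated when a strand crosslink is met and 1 of 2 listed Fanconi anemia genes, gave 24.8, 43.7, 23.4 and 44.7 in Sirt6-/-RelA-/- cells, 19.3, 15.7, 13.1 and 18.4 in Sirt6-/- cells and 33.5, 42.6, 52.1 and 45.0 in wild-type cells. Brca2, which acts in homologous recombination, gave 34.8, 27.9, 29.4 and 49.1 in Sirt6-/-RelA-/- cells, 19.2, 19.7, 19.1 and 15.1 in Sirt6-/- cells and 37.1, 25.4, 31.4 and 31.1 in wild-type cells. Rad51c, which acts in the same pathway, gave 17.9, 30.1, 25.9 and 25.5 in Sirt6-/-RelA-/- cells, 15.1, 9.51, 7.70 and 12.7 in Sirt6-/- cells and 24.5, 32.2, 30.4 and 32.03 in wild-type cells. All Sirt6-/-RelA-/- arrays lay above all Sirt6-/- arrays in 5 of the 20 genes (Ogg1, Msh3, Brca2, Rad51c and Fancd2), and below them in 1, Lig4, the ligase of end joining, where 4.45% of all genes under 100 lay above and 2.81% below. For Ogg1 and Msh3 the Sirt6-/- arrays were all under 16. With values under 16 set to 16 the counts were 4 above, without Ogg1, and 1 below, where 2.22% and 2.18% of all genes under 100 were.

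The other dim genes overlapped between Sirt6-/- and wild-type cells. Polb, the polymerase that fills the gap in base excision repair, gave 79.2 to 88.6 in Sirt6-/-RelA-/- cells, 71.6 to 99.3 in Sirt6-/- cells, and in wild-type cells 80.3 to 88.7, and Xpc, which recognises distorted DNA, gave 55.2 to 65.4 in Sirt6-/-RelA-/- cells, 49.6 to 76.3 in Sirt6-/- cells, and in wild-type cells 53.2 to 69.8. The glycosylase gene Ogg1, the mismatch genes Msh3 and Exo1, the excision genes Ercc2 and Ddb2, the recombination genes Bard1 and Nbn, the end joining genes Xrcc5, Prkdc and Lig4 and the checkpoint kinase genes Chek1 and Chek2 were the rest. Lig4 gave 30.8 to 47.9 in Sirt6-/-RelA-/- cells, 51.8 to 61.2 in Sirt6-/- cells, and in wild-type cells 43.0 to 54.9.

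**Figure D3:**
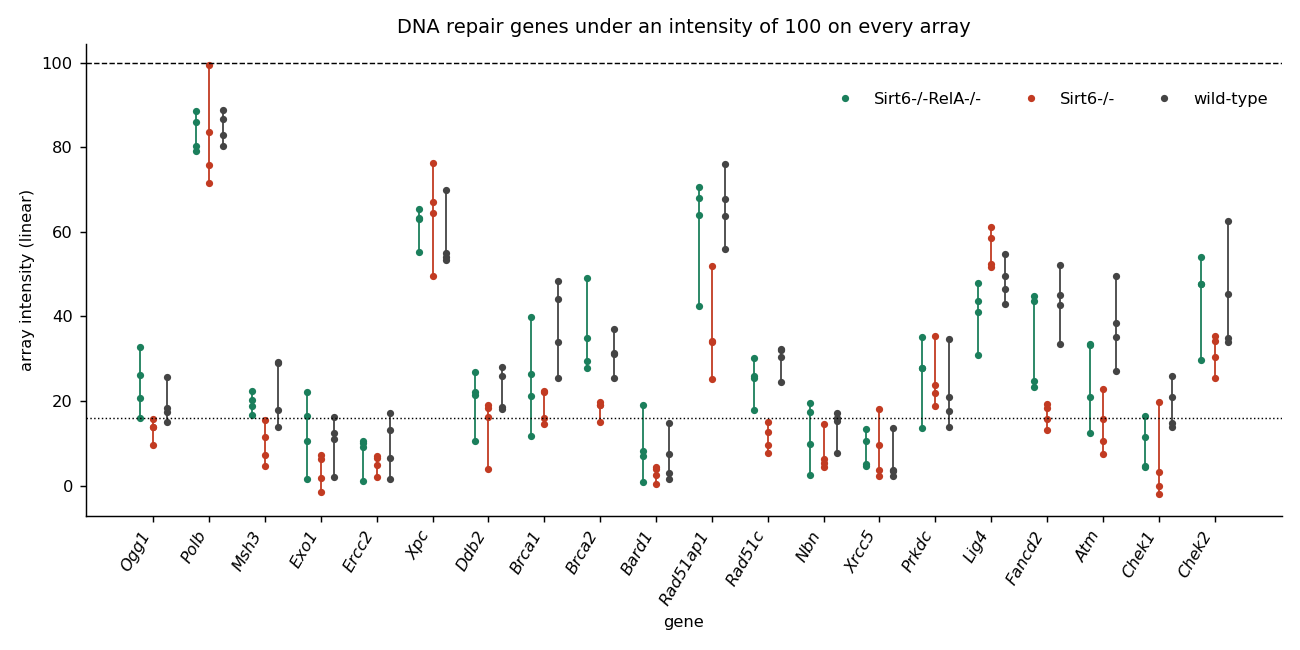
Linear array intensities of the 20 repair genes that stayed under 100 (dashed line) on every array, 4 arrays each of Sirt6-/-RelA-/-, Sirt6-/- and wild-type cells, with a bar over the range and the floor of 16 dotted. Of the 20 genes, 6 have all Sirt6-/- arrays below all wild-type arrays, among them Fancd2 and Rad51c, where 5.24% of all genes under 100 have.

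Repair genes outside the list were counted in the same way. Of 102 other repair genes 43 were tested, and 19 were lower and 6 higher in Sirt6-/- than wild-type cells, with a median of -0.29. Over all genes tested 17% were lower and 25.1% higher. In Sirt6-/-RelA-/- against Sirt6-/- cells 17 were higher and 2 lower, with a median of 0.21, where 16.1% of all genes were higher and 15% lower. Those furthest below wild-type were Timeless (-1.22) and Tipin (-0.999), which protect stalled forks, and Rad18 (-0.98), a ubiquitin ligase of damage bypass. Those furthest above were Mgmt (1.27), which removes alkyl groups from guanine, Polk (0.96), a polymerase that copies past lesions and is also on the list of p53 targets, and Ercc5 (0.50), a nuclease of nucleotide excision repair (adjusted p of these 6 between 2.21e-06 and 0.00928).

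Genes of DNA replication and of mitosis shifted on the same arrays, with larger medians. Beside the counts below, 17% of all genes tested were lower and 25.1% higher in Sirt6-/- than wild-type cells. In Sirt6-/-RelA-/- against Sirt6-/- cells 16.1% were higher and 15% lower. Of 26 replication genes tested 24 were lower and none was higher in Sirt6-/- than wild-type cells, with a median of -0.95, led by Tk1 (-2.004), Prim1 (-1.38) and Cdc6 (-1.31), and 25 were higher in Sirt6-/-RelA-/- than Sirt6-/- cells, with a median of 0.88. Of 17 mitosis genes all 17 were lower, with a median of -1.09, led by Plk1 (-3.13), Ttk (-1.68) and Birc5 (-1.53), and 16 were higher in the second comparison, with a median of 0.93. Of 18 targets of p53 tested 14 were higher and none was lower in Sirt6-/- than wild-type cells, with a median of 0.57, led by Pmaip1 (2.24), Fas (1.27) and Trp53inp1 (1.27), and 8 were lower in Sirt6-/-RelA-/- than Sirt6-/- cells. The part of these shifts in the repair gene differences was not tested.

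The cultures also differed in markers of other cells. Beside the counts below, 17% of all genes tested were lower and 25.1% higher in Sirt6-/- than wild-type cells. Of 7 skeletal muscle markers tested all 7 were higher in Sirt6-/- than wild-type cells, and the summed intensity of the 15 with a probe was 6731 to 8530 in Sirt6-/-RelA-/- cells, 9482 to 11330 in Sirt6-/- cells, and in wild-type cells 2786 to 4126, while Myod1, Myf5, Myf6, Mymk and Ckm reached 16 on no array. Of 4 macrophage and blood cell markers tested all 4 were lower, and the summed intensity of the 9 with a probe was 345 to 551 in Sirt6-/-RelA-/- cells, 214 to 526 in Sirt6-/- cells, and in wild-type cells 1008 to 2085, while Ptprc, Itgam, Fcer1g and Hba-a1 reached 16 on no array. Of 10 fibroblast markers tested 5 were lower and 1 was higher in Sirt6-/- than wild-type cells, and the summed intensity of the 11 with a probe was 25600 to 30960 in Sirt6-/-RelA-/- cells, 20330 to 26250 in Sirt6-/- cells, and in wild-type cells 27760 to 33770. The part of these markers in the repair gene differences was not tested.

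**Figure D4:**
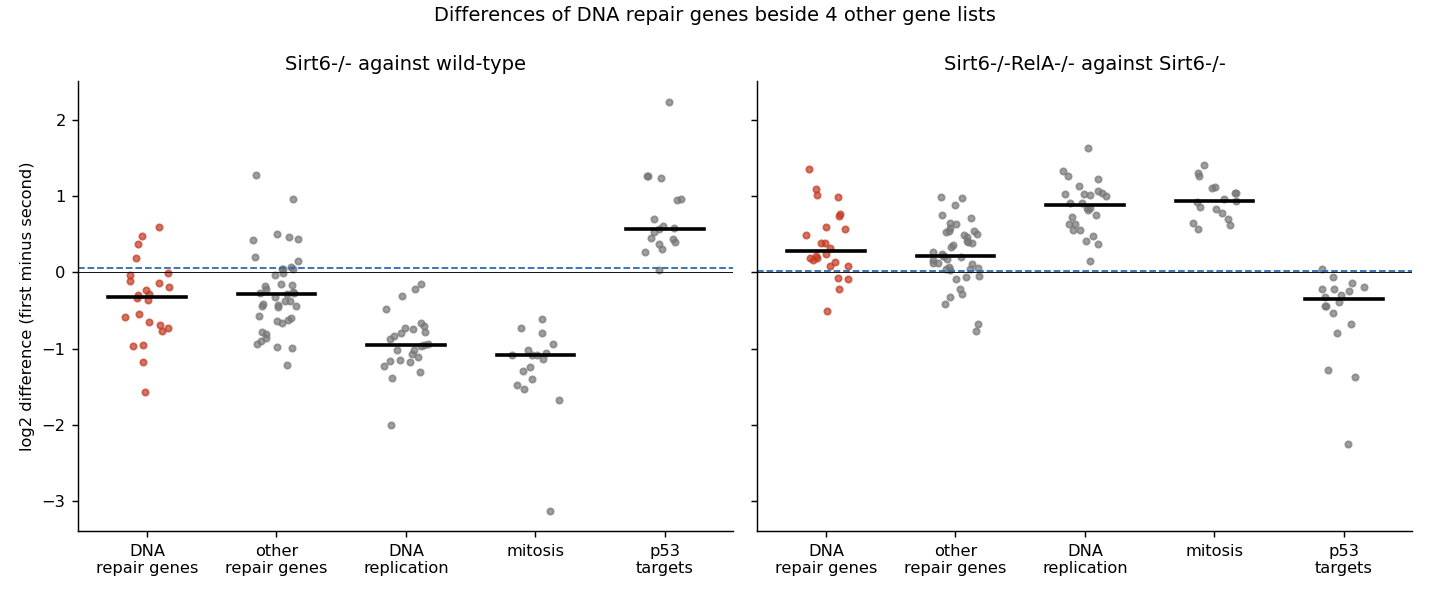
Log2 differences of the tested genes of 5 lists for Sirt6-/- against wild-type (left) and Sirt6-/-RelA-/- against Sirt6-/- cells (right), 1 point per gene, spread sideways for display, with a black bar at the median of each list and a dashed line at the median of all 6096 genes. The medians on the left are -0.32 for the repair genes, -0.29 for other repair genes, -0.95 for DNA replication, -1.09 for mitosis and 0.57 for p53 targets.

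Different probes of a gene gave like directions. Of the tested repair genes 10 had more than 1 probe that reached 100, and the probes had the same sign in all 10, both for Sirt6-/- against wild-type and for Sirt6-/-RelA-/- against Sirt6-/- cells. They differed in size: the second Parp2 probe gave -0.88 where the brighter gave -0.54, the second Mre11a probe -0.83 where the brighter gave -0.58, and the second Trp53bp1 probe 0.19 where the brighter gave 0.48, all for Sirt6-/- against wild-type cells.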

How the data were processed

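RNA of MEFs of 3 genotypes at 4 times of TNF-α had been hybridised to Illumina bead arrays, 1 for each of 12 conditions. The deposited values are linear intensity values, with background subtraction and scaling between arrays already done by the authors, and the submitters' processing notes name GenomeStudio with no version. The scaling method is not given in the sources used here. Of all values 17.7% were negative. A further table of non-normalized signals was not used, since its 12 signal columns matched no sample by name. A floor of 16 was applied before the log2 transformation. For each gene the brightest probe that reached 100 on any array was kept, out of 23978 probes with 1 gene symbol. All 6096 genes were fitted with genotype and time as terms in limma 3.58.1 (R 4.3.3), on 6 residual degrees of freedom, with Benjamini-Hochberg adjustment and a threshold of 0.05. Differences in the TNF-α response pooled the 3 later times. In simulated data 58% of genes changed by 0.5 and 96% of those changed by 1 were recovered for Sirt6-/- against wild-type cells, and 41% and 95% for 24 h against 0 h. For Sirt6-/- against wild-type cells the simulation had 163 calls over 6096 genes and the data had 2570, so its rates do not describe the data. The simulated noise was the residual spread of the fit with genotype and time, which also holds any difference in TNF-α response.

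Values on every array are given for repair genes called in Sirt6-/- against wild-type or Sirt6-/-RelA-/- against Sirt6-/- cells with a difference of at least 0.5, at most 4 for each pathway, and for Trp53bp1. Ddb1, Xrcc4, Fancd2, Brca2 and Rad51c were added after their values were seen, as was the promoter search. Of the other lists at most 3 genes each way are named. The members and all lists were chosen with earlier results of these data known. Alternatives covered the filter, floor, offset, scaling, probes, variance prior and arrays in the fit. Promoters came from a RefSeq table (GRCm38.p6). Plots used matplotlib 3.10.9 (Python 3.11.15).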

Additional observations from a re-analysis of the deposited data

How the results depend on the processing

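None of the 16 calls for Sirt6-/- against wild-type or of the 13 for Sirt6-/-RelA-/- against Sirt6-/- cells changed direction under any alternative run. The calls of 10 genes that were lower (Blm, Fen1, H2ax, Lig1, Mre11a, Parp1, Parp2, Pms2, Rad54l and Ung) and 2 that were higher (Trp53bp1 and Xpa) in Sirt6-/- than wild-type cells held under every alternative in which the gene was tested, as did 9 higher calls in Sirt6-/-RelA-/- against Sirt6-/- cells (those of the 10 genes other than Pms2). With single arrays or times left out, 12 to 16 repair genes were called in the first comparison, 10 to 13 in the second and 0 to 3 in Sirt6-/-RelA-/- against wild-type cells. In this last comparison 1 gene, in place of 2, was called with no filter, quantile normalization, the mean over probes and a trended, robust prior, and 0 with only the 8 arrays of both genotypes. Centring on the median left 1 higher and added 1 lower gene, and leaving out arrays gave 0 to 3 higher and 0 to 2 lower. In Sirt6-/-RelA-/- against Sirt6-/- cells 2 genes were lower, in place of 1, with a filter of 50 or the mean over probes (Trp53bp1 in the second case), and 0 to 1 with arrays left out. The TNF-α response of Ddb1 differed between Sirt6-/- and wild-type cells (1 gene called, adjusted p between 0.0336 and 0.0497) with a filter of 200, an offset of 50, quantile normalization or the trended, robust prior, and with arrays left out 0 to 1 were called.

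The single arrays behind lost calls were, for Sirt6-/- against wild-type cells, every array but the 0 h arrays of Sirt6-/-RelA-/- and wild-type cells for Apex1, the 0, 6 and 24 h Sirt6-/- and 0 and 1.5 h wild-type arrays for Xrcc1, the 0, 1.5 and 6 h arrays of both genotypes for Rad50, and every Sirt6-/- array and the 0, 1.5 and 6 h wild-type arrays for Ercc3. For Sirt6-/-RelA-/- against Sirt6-/- cells they were the 24 h Sirt6-/-RelA-/- and 1.5 and 24 h Sirt6-/- arrays for Pms2, the 0 h Sirt6-/-RelA-/- and 1.5 and 6 h Sirt6-/- arrays for Xrcc6, and the 1.5, 6 and 24 h Sirt6-/-RelA-/-, all Sirt6-/- and 1.5 h wild-type arrays for Lig3. For Sirt6-/-RelA-/- against wild-type cells they were the 0, 1.5 and 6 h Sirt6-/-RelA-/- and 6 h wild-type arrays for Ercc3, and every array but the 24 h Sirt6-/- and 0 h wild-type arrays for Blm. Calls were gained in Sirt6-/- against wild-type cells for Lig3 without the wild-type 6 h array (-0.37), for Xrcc4 without the wild-type 24 h array (-0.43) and for Xrcc6 without the wild-type 0 h array (-0.28), and in Sirt6-/-RelA-/- against wild-type cells for Ddb1 without that array (0.39), for Xrcc4 without the wild-type 24 h array (-0.51) and for Pms2 without the Sirt6-/-RelA-/- (-0.41) or the wild-type (-0.38) 24 h array.

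Some small, uncalled differences changed sign. Leaving out arrays gave Ddb1 -0.154 to 0.217 and Ercc1 -0.065 to 0.0643 for Sirt6-/- against wild-type cells. For Sirt6-/-RelA-/- against Sirt6-/- cells it gave Ercc1 -0.0302 to 0.195, Ercc3 -0.0273 to 0.185, Wrn -0.15 to 0.0501 and Xrcc4 -0.225 to 0.072. A further 9 uncalled differences of Sirt6-/-RelA-/- from wild-type cells, of at most 0.184, changed sign under some setting. Counts over all genes moved more: 484 to 1428 were called for Sirt6-/-RelA-/- against wild-type cells (1254 as reported), 1144 to 2481 for Sirt6-/-RelA-/- against Sirt6-/- cells (1897), 1 to 95, 2 to 129 and 0 to 175 at 1.5, 6 and 24 h of TNF-α (16, 54 and 131), 0 to 230 for the difference in response between Sirt6-/- and wild-type cells (5) and, with arrays left out, 0 to 29 for that between Sirt6-/-RelA-/- and Sirt6-/- cells (10), which was higher still with no filter. For Sirt6-/- against wild-type cells 1754 to 2926 were called (2570 as reported). The cause of these changes was not tested. Time was a term in every fit, so genotypes were compared within times, and no further block was fitted because the labels give all arrays the same replicate number. With 1 array per condition the precision is limited by the number of arrays, and intensities near 16 are limited by background.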
